A study of Anas platyrhynchos x Cairina moschata with 137 samples.

Results

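The comparison concerned the liver of mule ducks on either side of hatching, embryonic day 28 (E28) against day 1 after hatching (D1). The members are the 39 animals of these stages out of 137 in the series, 20 at E28 and 19 on D1, and the stage was read from each animal's label. The mule duck is the cross of the common duck and the Muscovy duck, and the animals of both stages came from 1 genotype and 1 incubation. At E28 the eggs had already been moved to the hatcher, and the D1 ducklings were killed before their first meal and before the move to the rearing room, so both stages were unfed. Each animal is a separate liver at 1 stage, and no treatment was given. Quantitative PCR on microfluidic arrays gave the hepatic mRNA of 50 target genes, and the sexes of the animals are not given in the sources used here.

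Hatching takes a bird from the chorioallantoic membrane to the lung for oxygen and, with the first meals, from yolk lipid to a diet rich in carbohydrate. The liver of birds is the main site of fatty acid synthesis, while in the egg it handles the lipid of the yolk. The panel was chosen for 4 groups of genes. The development genes include HGF, a growth factor for hepatocytes, and PROX1, a transcription factor of hepatoblasts. Those of carbohydrate metabolism include HK1, which phosphorylates glucose, and the glucose transporters GLUT1 and GLUT2. Those of lipid metabolism include FASN, which builds palmitate, SCD1, which desaturates it, and CPT1A, which carries fatty acids to β-oxidation. Those of cellular stress include the chaperone HSP90AA1 and CYP2E1, a cytochrome P450 of detoxification. The deposited tables number the genes and do not pair the numbers with names, so each gene is called here by its row number, and neither the gene groups nor the identity of the tissue by its marker genes could be assessed.

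The relative expression of a row is a linear ratio derived from the threshold cycle (Ct), the cycle of the PCR in which the fluorescence of a product passes a set level. It is 1 where the Ct, taken against 5 reference genes, is at the average of the 137 animals for that row. Values therefore compare stages within a row and not the levels of different rows. Differences are given as D1 minus E28 on the log2 scale, where 1 is a doubling. In liver tissue, fewer cells of a type and less RNA per cell cannot be told apart.

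By limma on log2 values over all 7 stages, 40 of the 50 rows passed an adjusted p of 0.05 (Benjamini-Hochberg over the 50 rows), 80% of the rows tested. Of these, 26 rows (52%) were lower and 14 rows (28%) were higher on D1. The SE, p-values and intervals of this fit rest on 1 residual spread per row, shared by all 7 stages. Fitted on the E28 and D1 animals alone, the same 40 rows were called in the same direction. The procedure of the methods took linear values, by analysis of variance in 19 rows and by the ranks of a Kruskal-Wallis test in 31 rows. With its comparisons over 21 pairs of stages it called 14 rows, 7 lower and 7 higher, all among the 40. The called falls of the log2 fit lay between -0.49 and -2.26 with a median of -1.38, and 17 of the 26 reached -1. The called rises lay between 0.37 and 3.69 with a median of 1.09, and 7 of the 14 reached 1. In the rows called lower, a D1 animal exceeded an E28 animal in a median of 11.4% of the pairs of animals, and in the rows called higher in a median of 94.5%. The falls were more numerous with a larger median, while the farthest rise was larger than the farthest fall. The median difference was -0.58 over the 50 rows and -0.14 over the 43 rows with at least 15 values in each stage.

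**Figure D1:**
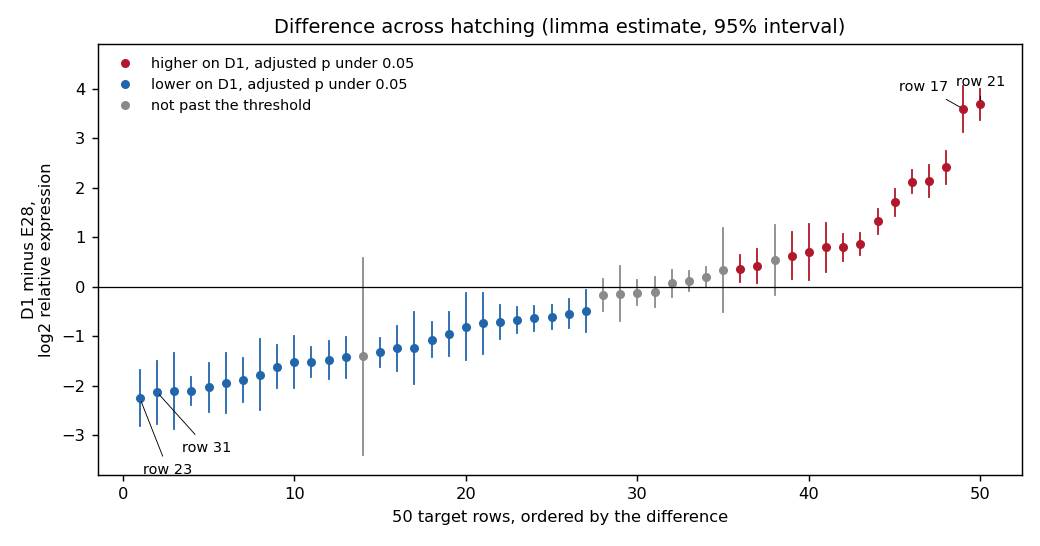
D1 minus E28 difference of log2 relative expression (vertical axis) for the 50 target rows ordered by size, each point the limma estimate and each line its 95% interval, with rows past the threshold in colour. The 26 rows lower on D1 reach -2.26 and the 14 rows higher on D1 reach 3.69, with a gap between the rise of 0.86 and that of 1.32.

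The largest rise among the deposited values was that of row 21. Its relative expression at E28 had a lowest value of 0.234, a median of 0.409 and a highest value of 1.40 in the 16 animals with a value, and on D1 a lowest value of 3.77, a median of 6.55 and a highest value of 12.7 in 18 animals. Every D1 animal lay above every E28 animal. The difference was 3.69 (SE 0.16, limma adjusted p = 4.46e-46), or 12.9-fold. Fitted on the animals of E28 and D1 alone, the limma adjusted p was 4.81e-17. The fit left out 4 animals at E28 and 1 on D1 that had a Ct but no relative expression. Recomputed from the Ct, these 4 lay between 1.61 and 2.38, above the kept values of E28 and still below every D1 animal, and with all 5 restored the difference was 3.33, smaller than that of row 17 with its values restored, 3.55.

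Row 17 followed, with a lowest value of 0.0475, a median of 0.19 and a highest value of 0.428 at E28 (n = 19) and a lowest value of 0.969, a median of 2.07 and a highest value of 4.18 on D1 (n = 18). The stages again did not overlap. The difference was 3.59 (SE 0.23, limma adjusted p = 6.73e-30), or 12.0-fold, and 1 animal of each stage had no relative expression. Recomputed from the Ct, the E28 animal was at 0.956, just below the lowest D1 value of 0.969, and the D1 animal was at 6.53. The limma adjusted p of row 17 was 4.58e-16 when only E28 and D1 animals were fitted. In the procedure of the methods, which compares linear values or their ranks over 21 pairs of stages, the same change in row 17 was not called, with an adjusted p of 1. The D4 animals, which enter that procedure, had 45.9 ± 18 (SD, n = 20).

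In 5 rows every D1 animal lay above every E28 animal, and these were the 5 rows that rose by at least 2. With the values that had a Ct but no relative expression restored, 5 rows were still separated in this way. The Ct of rows 21 and 17 moved with the relative expression. In row 21 it was 17.6 ± 0.97 cycles at E28 (SD, n = 20) and 13.9 ± 0.78 on D1 (SD, n = 19). In row 17 it was 17.9 ± 1.29 and 14.0 ± 0.82 cycles in the same animals. An earlier Ct stands for more template, so both rows gained more than 3 cycles before any reference was applied.

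Row 23 had the largest fall among the deposited values. Its relative expression had a lowest value of 0.111, a median of 0.837 and a highest value of 1.81 at E28 (n = 20) and a lowest value of 0.0107, a median of 0.185 and a highest value of 0.388 on D1 (n = 14). The stages overlapped, with a D1 animal above an E28 animal in 9.29% of the pairs. The difference was -2.26 (SE 0.29, limma adjusted p = 4.76e-12), a level 4.77-fold higher at E28. When only the E28 and D1 animals were fitted, the limma adjusted p was 7.25e-06. On D1 the fit lacked 4 animals without a Ct and 1 with a Ct but no relative expression. The lowest D1 animal stood apart from the next, at 0.0788, and without it the difference was -1.96. This was smaller than the falls of rows 31, 32, 8 and 35 with all their deposited values kept. With the values that had a Ct restored, row 35 had the largest fall, -2.21, against -2.10 in row 23. With the missing Ct also set to the latest of their row, row 25 had it, with -4.12 against -2.82 in row 23. Rows 35 and 25 were named after their values were seen.

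Row 31 had a lowest value of 0.213, a median of 0.87 and a highest value of 3.01 at E28 (n = 17) and a lowest value of 0.00592, a median of 0.203 and a highest value of 0.467 on D1 (n = 16). Its stages overlapped in 6.62% of the pairs of animals. The difference was -2.13 (SE 0.32, limma adjusted p = 2.51e-09), a level 4.38-fold higher at E28, with 3 animals of each stage left out for want of a value. Without the lowest D1 animal, a different animal from that of row 23, it was -1.80. The SD of the log2 values of row 31 was 0.37 at E12, 1.14 at E28 and 1.43 on D1. The spread shared by the 7 stages is thus not that of these 2, and with E28 and D1 alone the limma adjusted p was 4.73e-05. In the procedure of the methods neither fall was called, with an adjusted p of 0.0612 for row 23 and 0.241 for row 31 in the comparisons over 21 pairs of stages.

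A single row, row 8, had every D1 animal below every E28 animal, with 0.350 to 1.91 at E28 (n = 20) and 0.108 to 0.246 on D1 (n = 17). It was named after its values were seen. The separation depended on blank values. In 2 D1 animals row 8 had a Ct but no relative expression, and recomputed from the Ct they were 0.355 and 0.386, past the lowest E28 animal. The difference of row 8 was -2.10 (SE 0.14, limma adjusted p = 5.75e-28).

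**Figure D2:**
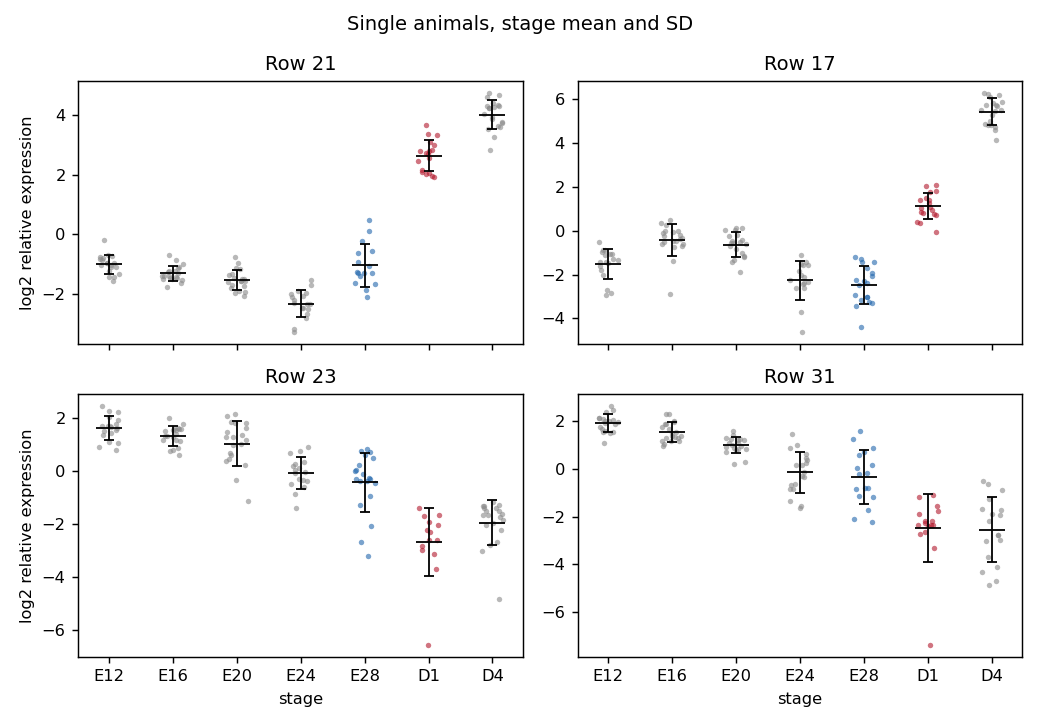
log2 relative expression (vertical axis) of rows 21, 17, 23 and 31 in single animals at the 7 stages, with the stage mean and SD in black, E28 in blue and D1 in red. Rows 21 and 17 show no overlap between E28 and D1, while rows 23 and 31 overlap and each has 1 D1 animal far below the others.

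Set in the whole series, rows 21 and 17 differed in when their rise began, while rows 23 and 31 had both fallen since E12. Row 21 had its lowest stage mean at E24, 0.208 ± 0.064 (SD, n = 18), and had risen by 1.28 (SE 0.16, limma adjusted p = 6.6e-12) at E28. After D1 it rose by another 1.38 (SE 0.15, adjusted p = 1.99e-15), to 17 ± 5.31 on D4 (SD, n = 20). Row 17 had its lowest stage mean at E28, 0.211 ± 0.118 (SD, n = 19), and the difference from E24 was -0.22 (SE 0.24, limma adjusted p = 0.458). From D1 to D4 it rose by 4.29 (SE 0.23, adjusted p = 3.43e-37). Row 23 had fallen over the stages from 3.25 ± 1.02 at E12 (SD, n = 19), with its lowest stage mean on D1, and rose by 0.74 (SE 0.29, limma adjusted p = 0.0132) to D4. Row 31 had also fallen, from a mean ratio of 3.92 ± 1.02 at E12 (SD, n = 19) to 1.04 ± 0.80 at E28 (SD, n = 17). The step from E24 to E28 was not called in row 23 (-0.36, SE 0.27, limma adjusted p = 0.26) or row 31 (-0.20, SE 0.31, limma adjusted p = 0.59). Mean ratios of row 31 were 0.228 ± 0.117 on D1 (SD, n = 16) and 0.248 ± 0.207 on D4 (SD, n = 18). The difference of its log2 values from D1 to D4 was -0.08 (SE 0.32, limma adjusted p = 0.808). These steps share the animals of E28 and D1 with the comparison across hatching, and the sizes of the steps were not tested against each other.

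Over the 50 rows, the step from E24 to E28 gave 26 calls in the same fit (52%), 4 of them rises, and the step from D1 to D4 gave 44 (88%), 39 of them rises. The median difference was -0.37 from E24 to E28, -0.58 from E28 to D1 and 1.41 from D1 to D4. The step across hatching was therefore the last in which falls outnumbered rises among the rows called. The counts were not tested against each other.

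For 10 rows the difference did not pass the threshold. Apart from row 47, the 9 others had differences between -0.17 and 0.53, and their 95% intervals lay between -0.70 and 1.24. The 0.53 and 1.24 were those of row 36, named after its values were seen. Its log2 SD was 2.62 at E28 and 0.71 on D1. By the median ratio, row 36 was lower on D1, with 0.553 against 0.684 at E28. Row 47 had a difference of -1.40 (SE 1.00, limma adjusted p = 0.191) with an interval from -3.39 to 0.58, so its direction could not be determined with these animals. It had a value in 10 animals of each stage. At E28 2 of these values were at 0.00305 or lower and the other 8 at 0.0609 or higher, and on D1 3 were at 0.00891 or lower and the other 7 at 0.06 or higher. Nothing lay between, and the SD on the log2 scale was 3.45 at E28 and 3.43 on D1. Row 47 also had the latest Ct of the panel, a mean of 25.4 cycles at E28 and 26.7 on D1.

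Blank values were unevenly spread. Of the values that 50 rows make in each stage, 50 of 1000 had no relative expression at E28 (5.0%) and 79 of 950 on D1 (8.32%). Per animal this was 2.5 ± 2.52 blank values at E28 (SD, n = 20) and 4.16 ± 2.09 on D1 (SD, n = 19), a difference of 1.66 (2-sided permutation test with 100000 resamples, p = 0.0336). All 19 D1 animals had at least 1 blank value, and 3 of the 20 E28 animals had 0.

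These blanks were of different kinds. Values with no Ct at all numbered 20 at E28 (2.0%) and 54 on D1 (5.68%), a difference of 1.84 per animal (permutation test, p = 0.00087), and D1 had the most of all 7 stages. Those that had a Ct and yet no relative expression numbered 30 at E28 and 25 on D1, a difference of -0.18 per animal (permutation test, p = 0.847). They were uneven between animals. The most in a single animal was 10 at E28 and 9 on D1, and 10 animals of each stage had 0. Every one of these 55, when recomputed from its Ct, lay above all kept values of its row and stage. The higher number of blanks on D1 thus came from missing Ct.

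The values without a Ct came from 13 of the 50 rows. Row 47 had 9 at E28 and 8 on D1, the most over both stages. Row 32 had 4 at E28 and 11 on D1. With 1 more blank value at each stage, which had a Ct, row 32 kept 15 animals at E28, from 0.0871 to 2.83 with a median of 0.735, and 7 on D1, from 0.0945 to 0.246 with a median of 0.117. Its difference was -2.11 (SE 0.39, limma adjusted p from the fit over all 7 stages = 6.24e-07). The SD of the log2 values of row 32 was 0.43 at E12, 1.47 at E28 and 0.56 on D1, while the fit rests on 1 spread shared by the stages. Row 26 was without a Ct in 0 of 20 animals at E28 and in 10 of 19 on D1. Row 25 had 0 and 5, row 18 had 2 and 5, row 23 had 0 and 4, and row 35 had 1 and 4. Rows 14 and 7 had 0 at E28 and 2 on D1, and row 31 had 2 at each stage. Row 2 had 1 on D1 alone, and rows 44 and 49 had 1 each at E28 alone. In 9 of the 13 rows the number was higher on D1, in 3 at E28, and in 1 it was equal.

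The 13 rows amplified late. Their mean Ct lay between 19 and 25.4 cycles at E28, against 11.5 to 21.2 cycles in the 37 other rows. Of the 13, 10 were called lower on D1, 2 were called higher and 1 was not called, against 52% of all rows called lower. Row 2, 1 of those called higher, lost its call with the values that had a Ct restored. The values that are missing are not in these differences, and whether a missing Ct stands for too little template or for a melting curve rejected by the authors cannot be told apart in the tables.

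The share of blank values differed in 1 row, 2% of the rows tested, by Fisher's exact test with Benjamini-Hochberg adjustment over the 50 rows. This was row 26 (2-sided exact p = 0.000145, adjusted p = 0.00727), named after its values were seen. Unadjusted, 3 rows were under 0.05. In the animals that kept a value, row 26 had a lowest value of 0.16, a median of 1.06 and a highest value of 3.18 at E28 (n = 20) and a lowest value of 0.235, a median of 0.405 and a highest value of 0.766 on D1 (n = 9), a range that lay inside that of E28. The difference in row 26 was -1.24 (SE 0.37, limma adjusted p = 0.00166). With each missing value set to the latest Ct of its row, it was -2.20.

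**Figure D3:**
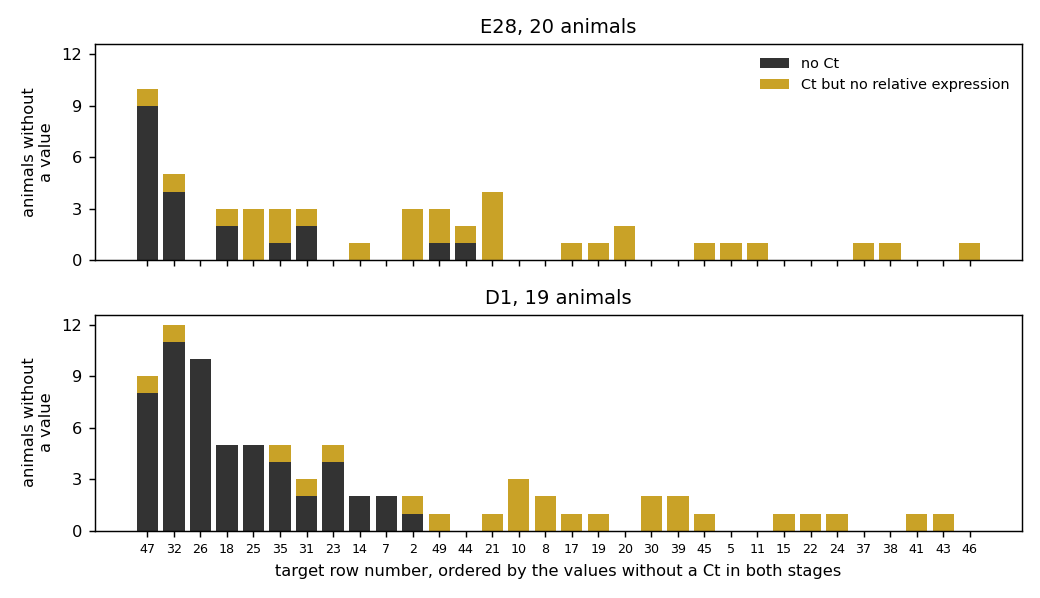
Number of animals without a relative expression (vertical axis) in the 32 rows with any blank value at E28 (top) or D1 (bottom), split into values without a Ct and values whose Ct was not carried into a relative expression. Missing Ct values rise from 20 at E28 to 54 on D1 and sit in 13 rows, whereas the other kind, 30 at E28 and 25 on D1, sits in 30 rows.

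The direction of each difference was then set against the 5 reference rows, rows 51 to 55, which had a Ct in every animal. These are the rows with a Ct and no relative expression, and the references named in the methods are SDHA, GLUT8, PDHA1, POL2 and luciferase, an exogenous RNA added at reverse transcription, without a pairing to the row numbers. The mean Ct of the 5 references was 16.1 ± 0.58 cycles at E28 (SD, n = 20) and 15.8 ± 0.35 on D1 (SD, n = 19), a difference of -0.35 cycles (2-sided permutation test, p = 0.0295). Reference row 53 went from 16.4 ± 0.88 to 15.7 ± 0.48 cycles, by -0.72 (permutation test, adjusted p = 0.0102 over the 5 references). Reference row 51 went from 17.4 ± 0.81 to 16.8 ± 0.48 cycles, by -0.63 (adjusted p = 0.0102 by the same test). The other 3 differed by -0.21 cycles in row 52, -0.14 in row 54 and -0.03 in row 55 (permutation test, adjusted p = 0.324, 0.238 and 0.887).

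With a single reference in place of the 5, the differences of the 18 rows without a blank value shifted together, by -0.29 with row 51, 0.14 with row 52, -0.37 with row 53, 0.21 with row 54 and 0.31 with row 55 on the log2 scale. In the 32 rows with a blank value, the shift depended on the animals measured and lay between -0.45 and -0.32 with row 53, for example, and between 0.19 and 0.47 with row 55. The split of the calls moved as well. With all 5 references 14 of 40 calls were rises. With row 53 alone it was 9 of 38, with row 55 alone 17 of 35, and with no reference at all 16 of 34. With rows 51, 52 and 54 alone, 10 of 39, 15 of 38 and 14 of 33 calls were rises. The median over the 50 rows stayed negative with each reference alone, between -0.94 and -0.29.

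The sign of the difference was the same with each of the 5 references alone in 41 of 50 rows. Of the 40 rows called, 39 kept their sign and 27 were also called with each reference alone, 18 lower and 9 higher on D1, while 13 lost their call with at least 1 of them. The exception in sign was row 33, named after its values were seen. It ranged from 0.272 to 0.708 at E28 (n = 20) and from 0.536 to 0.875 on D1 (n = 19), with a difference of 0.37 (SE 0.13, limma adjusted p = 0.0109) that became -0.01 with reference row 53 alone and 0.68 with row 55 alone. A call in the opposite direction occurred in 0 rows with any of the 5. In row 21 the difference ran from 3.30 to 4.15 over the 5 references, in row 17 from 3.23 to 3.90, in row 23 from -2.61 to -1.96 and in row 31 from -2.51 to -1.82, each called with every reference. With the mean Ct of the 37 target rows measured in every animal as the scale, 12 rows were called higher and 26 lower. That scale is built from rows that are themselves tested, so it is no separate check of the split into rises and falls.

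**Figure D4:**
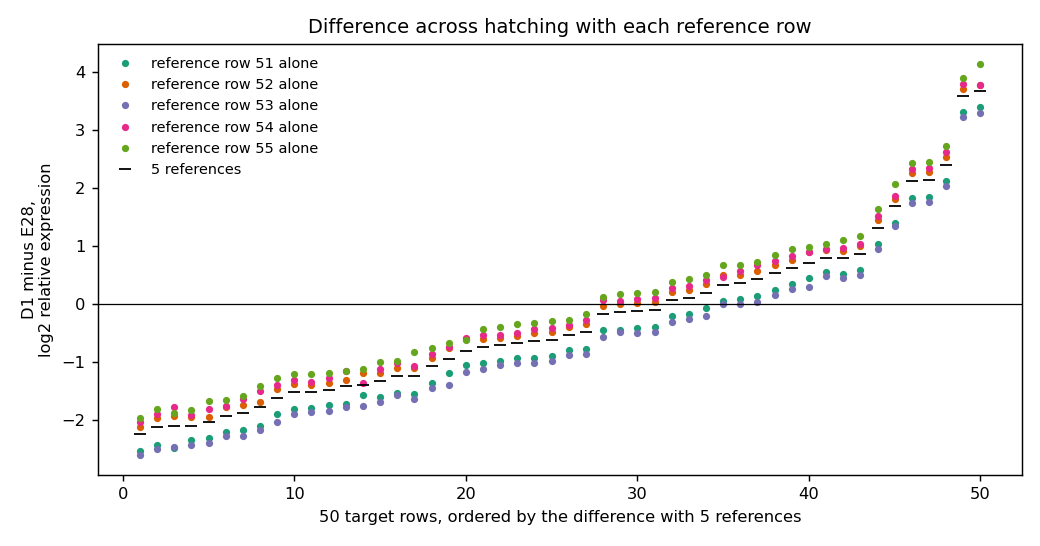
D1 minus E28 difference of log2 relative expression (vertical axis) for the 50 target rows, in the order of the difference with 5 references (black bars), with coloured points for each of the 5 reference rows used alone. The points of a row span from reference row 53 (lowest in most rows) to row 55 (highest in most rows), and the sign turns only in 9 rows near 0.

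The SD of the log2 values between animals was larger at E28 than on D1 in 37 of the 50 rows. Its median over the rows was 0.79 at E28 and 0.56 on D1. The rows share the animals and the references, and the SD of the mean reference Ct was larger at E28 as well, 0.58 against 0.35 cycles. Its part in the spread of the rows was not tested. Row by row, 2 rows (4%) passed the threshold in a permutation test of the Brown-Forsythe statistic, both wider at E28 and both with an adjusted p of 0.0495. Unadjusted, 9 rows were under 0.05, all wider at E28. The rows that passed, named after their values were seen, were row 29, with an SD of 0.81 at E28 and 0.30 on D1, and row 20, with 0.98 and 0.51. Row 20 ranged from 0.32 to 2.87 at E28 (n = 18) and from 0.605 to 2.14 on D1 (n = 19). Without the animal of each stage farthest from the median of its stage, E28 replicate 18 and D1 replicate 4, 0 rows passed the threshold, whereas 41 rows were called in the comparison of levels. With the absolute deviations of linear values from the stage median, divided by the stage mean, 0 rows passed with all animals.

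**Figure D5:**
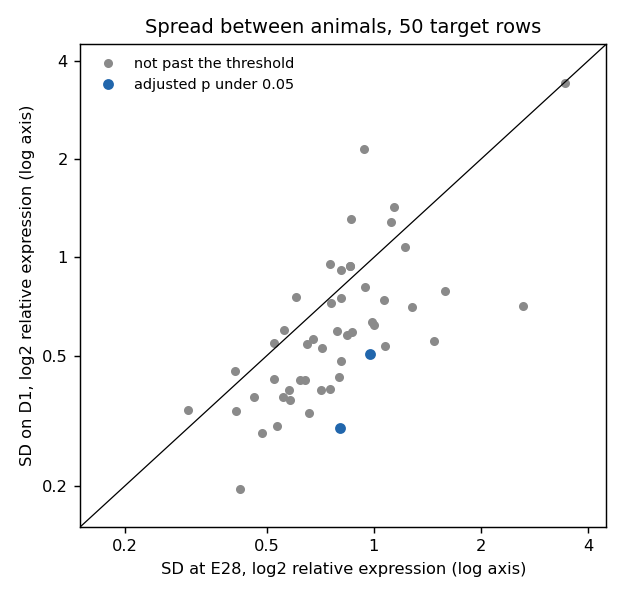
SD between animals on D1 (vertical axis, log scale) against the SD at E28 (horizontal axis, log scale) of log2 relative expression in the 50 target rows, with the line of equal SD. In 37 rows the SD is larger at E28, and the 2 rows past the threshold are in blue.

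Among the animals of a stage, the rows that moved most were compared in pairs, 12 relations in all for rows 21, 17, 23 and 31 at E28 and on D1. At E28 rows 23 and 31 varied together over the 17 animals with both values (Pearson r = 0.68, permutation p = 0.00216, adjusted p = 0.0259; Spearman rho = 0.75, permutation p = 0.0006, adjusted p = 0.0072). With the 2 animals most distant from the row 23 median left out, r was 0.58, and with single references it lay between 0.57 and 0.79. On D1 the same rows had r = -0.28 over 13 animals (permutation p = 0.199, adjusted p = 0.477; Spearman rho = -0.31, permutation p = 0.298, adjusted p = 0.715). With the 2 most distant animals left out, r was -0.03. The difference between the stages was not tested. Rows 21 and 17, the largest rises, had r = -0.40 over 15 animals at E28 (permutation p = 0.134, adjusted p = 0.477; Spearman rho = -0.36, permutation p = 0.191, adjusted p = 0.683), and 0.17 with the 2 most distant animals left out. For these rows r lay between -0.23 and 0.13 with single references. Rows 23 and 31 at E28 were the only 1 of the 12 relations past the threshold after adjustment, and both rows of a relation share the references of each animal. The mean Ct of the 37 target rows measured in every animal varied as well, with an SD of 0.88 cycles at E28 and 0.53 on D1. For the mean of the references the SD was 0.58 cycles at E28. The part of such a variation between animals in the relation was not tested.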

How the data were processed

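Liver RNA of 137 mule ducks was reverse-transcribed, preamplified and measured on microfluidic PCR arrays. The Ct values were read by the authors with the Fluidigm software, and the authors removed those with an aberrant melting curve. The deposited relative expression is a linear ratio that the authors computed with an efficiency of 2, against the mean Ct of all samples and 5 references. It was recomputed from the deposited Ct within 0.0028 on the log2 scale. The assignment of animals to arrays is not known here, so a part of the array in the missing Ct or in the differences between stages could not be assessed.

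The log2 of the ratio, with no pseudocount and no imputed value, was fitted with limma 3.58.1 (R 4.3.3) over all 7 stages, as the methods compare all stages, and D1 minus E28 was taken with Benjamini-Hochberg adjustment over 50 rows. Blank values were tested by Fisher's exact test, and Ct, blanks per animal and spread by 2-sided permutation tests with 100000 resamples, exact where a stage had under 10 values (Python 3.11.15, numpy 2.4.6, scipy 1.17.1). The procedures were tested on simulated data.

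The 2 largest rises, the 2 largest falls, the 2 rows with the most blank values and the references were named by rule. The comparison, rule and tests were chosen with earlier results of these data known. Ct carries no read depth. Precision depended on the number of animals and on the spread of the row. With 20 animals at E28 and 19 on D1, the SE was 0.10 in row 9 and 0.36 in row 36.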

Additional observations from a re-analysis of the deposited data

How the results depend on the processing

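Of the 40 rows called, 32 to 40 kept their call and direction under 20 of the 21 alternatives, among the rows each of them tested, and 0 rows were called in the opposite direction under any. The exception was the procedure of the methods, on linear values or their ranks over 21 pairs of stages. It called 14 rows, 7 higher and 7 lower, all 14 among the 40. It lost rows 17, 23 and 31, with log2 ratios of the arithmetic means of 3.47, -2.23 and -2.19. The cause was not tested. Reference row 53 alone gave 9 rows higher instead of 14 and a median difference of -0.94 instead of -0.58. The median was -0.14 over the 43 rows with at least 15 values in each stage. Counting only the values whose Ct was not carried into a relative expression, the share of blanks differed in 0 rows instead of 1 (Fisher's exact test, 0 rows unadjusted under 0.05), and the difference per animal was -0.18 instead of 1.66. The spread differed in 1 row with values restored, in 0 without the extreme animals and in 0 by the deviations of linear values over the stage mean, instead of 2. With a replicate block in the fit of E28 and D1, 38 rows were called, 13 higher and 25 lower. The numbers do not pair the animals, since each animal is a separate liver at 1 stage. The deviations of the 19 same-numbered pairs had a mean correlation of -0.04. The correlation was over 0.1 in 6 pairs, and 1 animal correlated best with its own number. The number of Ct of references that differed, 2, held under both its alternatives. The alternative without the lowest D1 animal in rows 23 and 31 was chosen after seeing the data. The number of animals limits precision, down to 7 values in 1 row on D1.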
